A study of Mus musculus with 12 samples.

Results

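The proliferation and mitosis genes described here are 46 mouse genes that copy the DNA, drive the cell cycle or divide the chromosomes. They were chosen by gene symbol from the 55453 genes counted in skin. The rule uses no measured value, though earlier results of these data were known when the list was drawn up. All 46 passed the filter on low counts that left 18311 genes for testing. They fall into 6 roles: 12 genes of origin licensing and the replicative helicase, 4 of DNA synthesis, 9 cyclins, kinases and CDC25 phosphatases, 4 transcription factors, 9 mitotic kinases, checkpoint and anaphase-promoting complex (APC/C) genes, and 8 kinetochore, spindle and chromosome genes. The study asked how loss of Thy-1, a glycoprotein on the surface of fibroblasts, changes bleomycin-induced skin fibrosis. Skin RNA came from 12 mice of the C57BL/6 background, with 3 mice in each of 4 groups. WT PBS mice were wild type and were injected with PBS, and WT BLM mice were wild type and were injected with bleomycin at 10 mg/kg per day. KO PBS and KO BLM mice carried a Thy1 knockout and received the same injections. The methods describe the knockout mice as female and 8 to 12 weeks old, and do not give sex or age for the WT mice. Bleomycin is a DNA-breaking drug that causes fibrosis where it is injected under the skin. The methods give daily injections for up to 14 days, and the skin was taken on day 21. The control mice were littermates by the methods, and neither the labels nor the methods give the hair cycle stage of the mice. Samples were whole skin, so fewer dividing cells and less of a transcript per cell cannot be told apart.

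A dividing cell loads the MCM helicase onto its replication origins, fires them in S phase, and then builds a spindle that pulls the copied chromosomes apart. Transcripts of these genes rise and fall with the cycle, and skin cells that do not divide hold little of them. E2F factors act on genes of the start of S phase, whereas the complex of MYBL2 and FOXM1 with MuvB proteins acts on mitosis genes, often through a promoter element named CHR. In adult mouse skin the dividing cells lie mainly in the basal epidermis, the sebaceous gland and, while a hair grows, the matrix of the hair bulb. Krt71 encodes a keratin of the inner root sheath, a layer of the growing hair follicle, and so it serves here as a readout of hair growth in each library.

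The upstream sequences of 6 members are shown because they carry the letters that these 2 systems are known to bind, or stand for a member that did not pass the test. Each is the 150 bases before the RefSeq start on GRCm38.p6, written 5′ to 3′ on the strand of the gene, and capitals mark the E2F, CHR and CCAAT letters. The windows of Mcm5 and Mcm6, members of the helicase ring, held E2F letters. Those of Mki67, Top2a and Kif11 held CHR letters, and Cdc25b is shown as a member that did not pass the test in WT mice. Cdc25b has CHR letters too, 8 bases after the start and so outside the printed stretch.
Mcm5 (chr8:75109359-75109508, + strand): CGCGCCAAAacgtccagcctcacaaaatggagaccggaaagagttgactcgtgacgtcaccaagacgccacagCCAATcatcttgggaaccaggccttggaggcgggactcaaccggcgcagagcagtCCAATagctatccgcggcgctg
Mcm6 (chr1:128359706-128359855, - strand): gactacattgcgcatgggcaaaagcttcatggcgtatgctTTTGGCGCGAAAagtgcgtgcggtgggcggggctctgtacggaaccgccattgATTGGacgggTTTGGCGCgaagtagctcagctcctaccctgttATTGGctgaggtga
Mki67 (chr7:135716380-135716529, - strand): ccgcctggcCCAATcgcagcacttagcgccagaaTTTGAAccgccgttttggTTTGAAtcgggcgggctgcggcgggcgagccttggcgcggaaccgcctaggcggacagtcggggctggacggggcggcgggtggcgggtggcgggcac
Top2a (chr11:99024190-99024339, - strand): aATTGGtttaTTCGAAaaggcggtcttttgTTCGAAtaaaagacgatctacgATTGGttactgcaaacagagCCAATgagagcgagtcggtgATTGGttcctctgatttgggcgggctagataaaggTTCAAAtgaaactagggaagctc
Kif11 (chr19:37376232-37376381, + strand): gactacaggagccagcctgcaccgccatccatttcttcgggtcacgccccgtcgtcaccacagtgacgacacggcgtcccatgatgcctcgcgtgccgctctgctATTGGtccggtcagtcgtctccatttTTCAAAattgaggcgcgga
Cdc25b (chr2:131186798-131186947, + strand): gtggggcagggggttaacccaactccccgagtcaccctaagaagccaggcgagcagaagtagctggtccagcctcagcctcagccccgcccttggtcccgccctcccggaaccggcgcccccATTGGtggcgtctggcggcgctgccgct

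Promoter windows of 300 bases, from 250 before to 50 after the RefSeq start, were found for 38 of the 46 members, as 39 windows. The E2F letters searched on both strands were TTTCCCGC, TTTGGCGC, TTTCGCGC and TTTGCCGC. They stood in 9 member windows (23.1%), against 3.41% of windows of genes tested and 2.26% of all promoters. Of these, 7 belonged to 11 licensing and helicase genes and 2 to the kinase genes Cdk1 and Cdk2. The CHR letters TTTGAA and TTCGAA were also read on both strands. They stood in 48.7% of member windows, 14.7% of windows of genes tested and 19.2% of all promoters. They were in 7 of 8 windows of the mitotic kinase, checkpoint and APC/C genes and in 4 of 6 of the kinetochore, spindle and chromosome genes. CCAAT, in either orientation, stood in 79.5% of member windows, 37.0% of windows of genes tested and 37.4% of all promoters. Some matches overlap, as the adjoining E2F letters of Mcm6 do. These shares describe letters only, and binding was not measured.

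In WT mice, bleomycin skin held less of nearly the whole set. Of the 46 genes, 38 fell and 0 rose at an adjusted p of 0.05 (edgeR quasi-likelihood test with Benjamini-Hochberg adjustment over all genes tested). Of all genes tested 34% were called in this comparison, and 14.1% were called lower. At an unadjusted p under 0.05 there were 42 members, against 47.4% of all genes tested. The log2 fold change was below 0 for 45 members and for 49% of all genes tested, with a median of -1.08 against 0.02 for all genes tested. In 45 of 46 members every WT BLM mouse was below every WT PBS mouse, which held for 28.7% of all genes tested. By role, the median was -0.72 for licensing and helicase genes, -0.86 for DNA synthesis, -1.08 for cyclins, kinases and CDC25, and -0.96 for transcription factors. It was -1.35 for mitotic kinases, checkpoint and APC/C genes and -1.37 for kinetochore, spindle and chromosome genes. Differences between roles were not tested.

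**Figure D1:**
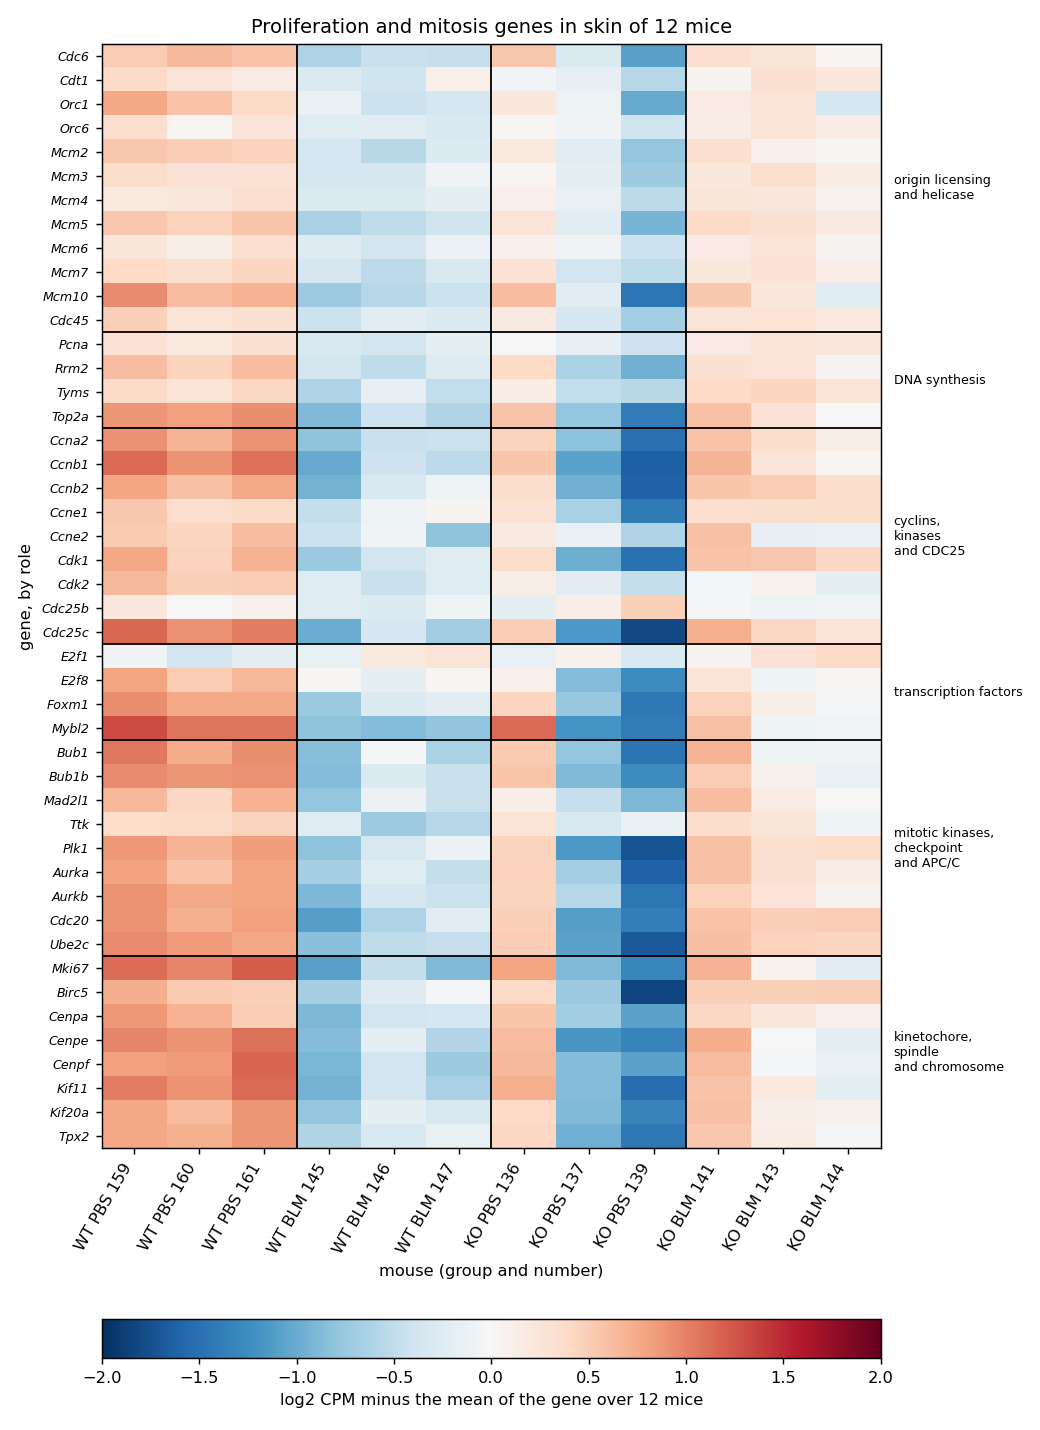
Level of the 46 genes (rows, by role) in each of 12 mice (columns, by group and number), as log2 CPM minus the mean of that gene over the 12 mice. The 3 WT PBS columns are high for most genes, the WT BLM columns and KO PBS mice 137 and 139 are low, and KO PBS 136 is high for most genes, as is KO BLM 141.

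Of the origin licensing and helicase genes, 11 of 12 fell. Mcm6 and Mcm7 encode subunits of the helicase that unwinds DNA ahead of the replication fork. Mcm7 was at 87.3, 82.3 and 88.8 CPM (counts scaled to library size) in the 3 WT PBS mice and at 52.2, 46.2 and 53.4 CPM in the WT BLM mice. The groups were far apart, and Mcm7 was 1.7-fold lower (log2 fold change -0.77, SE 0.18, adjusted p = 0.0141). Mcm6 was at 91.9, 84.3 and 96.5 CPM in WT PBS and at 64.9, 59.96 and 71.3 CPM in WT BLM, a 1.39-fold decrease (adjusted p = 0.0282). Mcm10 helps turn the loaded helicase into a working one and showed the largest change of the group. Its levels were 18, 14.4 and 15.2 CPM in WT PBS and 5.6, 6.29 and 6.96 CPM in WT BLM, 2.53-fold lower (adjusted p = 0.0332). The loading factors Cdc6 (log2 fold change -1.09, adjusted p = 0.0287) and Orc1 (-0.90, adjusted p = 0.0465) also fell. Cdt1, which brings MCM rings to the origin, had a log2 fold change of -0.45 and did not pass the test (adjusted p = 0.0647). Over the 6 subunits of the MCM ring, all called, log2 fold changes ran from -0.48 for Mcm6 to -1.03 for Mcm5.

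All 4 DNA synthesis genes fell. Pcna encodes the sliding clamp that holds DNA polymerases to their template. It was at 81.6, 77 and 82.5 CPM in WT PBS and at 53.9, 51.9 and 59.0 CPM in WT BLM, 1.46-fold lower (adjusted p = 0.00909). Top2a, the topoisomerase that untangles the copied chromosomes, was at 205, 196 and 212 CPM in WT PBS and at 60.8, 83.5 and 73.8 CPM in WT BLM. Its decrease of 2.81-fold (log2 fold change -1.49, SE 0.40, adjusted p = 0.0214) was the largest of the group. Rrm2 and Tyms, which supply deoxynucleotides, were 1.92-fold (adjusted p = 0.0311) and 1.71-fold lower (adjusted p = 0.0160).

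Among the 9 cyclins, kinases and CDC25 phosphatases, 6 fell. Cdk2, the kinase that starts S phase with cyclin E and carries it on with cyclin A, had the smallest adjusted p of all 46 members. It was at 78.8, 69.8 and 69.9 CPM in WT PBS and at 42.1, 36.8 and 42.3 CPM in WT BLM, 1.80-fold lower (adjusted p = 0.00599). Cdc25c, a phosphatase that switches on the mitotic kinase CDK1, changed most: 15, 12.7 and 13.7 CPM against 3.33, 5.28 and 4.13 CPM, 3.24-fold lower (adjusted p = 0.0254). Its relative Cdc25b did not pass the test. Its levels were 69.0, 59.7 and 62.9 CPM in WT PBS and 50.3, 49.3 and 56.1 CPM in WT BLM, with a log2 fold change of -0.30 (adjusted p = 0.137). The groups still did not overlap. The mitotic cyclin Ccnb1 was 3.20-fold lower (adjusted p = 0.0236) and the S phase cyclin Ccna2 2.62-fold lower (adjusted p = 0.0240). Cdk1 (adjusted p = 0.0486) and Ccne2 (adjusted p = 0.0308) also fell, and Ccnb2 (adjusted p = 0.0585) and Ccne1 (adjusted p = 0.203) missed the threshold.

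The 4 transcription factors held both extremes of the set. Mybl2, the factor that switches on mitosis genes with MuvB, changed most of all members. It was at 24.4, 20.8 and 20.6 CPM in WT PBS and at 5.56, 5.35 and 5.64 CPM in WT BLM, 3.97-fold lower (log2 fold change -1.99, SE 0.57, adjusted p = 0.0262). Foxm1, which acts on the same genes, was at 54.9, 48.5 and 48.7 CPM in WT PBS and at 17.1, 23.7 and 24.4 CPM in WT BLM, 2.33-fold lower (adjusted p = 0.0340). E2f8, a repressor of S phase genes, was at 34.3, 28.3 and 31.5 CPM against 20.3, 17.2 and 20.4 CPM (log2 fold change -0.70, adjusted p = 0.0823). E2f1, an activator of S phase genes, was the exception in direction. Its levels were 19.4, 15.7 and 18 CPM in WT PBS and 18.4, 23.4 and 24.6 CPM in WT BLM. These ranges overlap, and the log2 fold change of 0.32 did not pass the test (adjusted p = 0.138).

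Mitotic kinase, checkpoint and APC/C genes fell in 8 of 9 cases. Bub1b, a spindle checkpoint protein, was at 58.7, 56.2 and 57.3 CPM in WT PBS and at 16.6, 25.4 and 22.3 CPM in WT BLM, 2.68-fold lower (adjusted p = 0.0250). Cdc20, which activates the APC/C once chromosomes are attached, was at 55.4, 48.9 and 52.5 CPM in WT PBS and at 13.8, 19.3 and 25.4 CPM in WT BLM, also 2.68-fold lower (adjusted p = 0.0291). Ube2c, the ubiquitin-conjugating enzyme of that complex, was at 44.0, 41.3 and 39.3 CPM against 12.8, 16 and 16.5 CPM, 2.75-fold lower (adjusted p = 0.0289). For Ube2c, 22.8% of the exonic length overlaps the muscle gene Tnnc2 on the opposite strand, and the use of strand in counting is not given in the sources used here. Tnnc2 moved the other way, at 215 to 270 CPM in WT PBS and 923 to 1700 CPM in WT BLM. The Aurora kinase genes Aurka (adjusted p = 0.0454) and Aurkb (adjusted p = 0.0231) fell 2.26-fold and 2.56-fold. Ttk, the kinase at the top of the checkpoint, was 1.87-fold lower (adjusted p = 0.0102). Plk1, a kinase needed for spindle assembly, had a log2 fold change of -1.19 and missed the threshold (adjusted p = 0.0611).

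Of the 8 kinetochore, spindle and chromosome genes, 7 fell. Mki67, the gene of the proliferation antigen Ki-67, lies at chr7:135689784-135716361 (GRCm38, - strand). It was at 333, 305 and 359 CPM in WT PBS, 333 ± 26.7 CPM (SD, n = 3), and at 72.9, 112 and 83.6 CPM in WT BLM, 89.3 ± 20.0 CPM (SD, n = 3). No WT BLM mouse came near a WT PBS mouse, and the change was 3.72-fold lower (log2 fold change -1.90, SE 0.48, adjusted p = 0.0172). Kif11, the motor that pushes the spindle poles apart, was at 70.3, 64.1 and 76.0 CPM in WT PBS and at 17.9, 26.6 and 22.1 CPM in WT BLM, 3.16-fold lower (adjusted p = 0.0254). The kinetochore genes Cenpf and Cenpe were 3.07-fold (adjusted p = 0.0180) and 2.87-fold lower (adjusted p = 0.0344). Cenpf was at 53.7, 54.9 and 67.8 CPM in WT PBS and at 16, 23.5 and 18 CPM in WT BLM. Cenpe was at 44.8, 42.4 and 48.8 CPM against 12.3, 20.0 and 15.1 CPM. In both genes the groups were far apart. Birc5, the survivin gene, was the member of this role that missed the threshold (log2 fold change -0.88, adjusted p = 0.121).

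**Figure D2:**
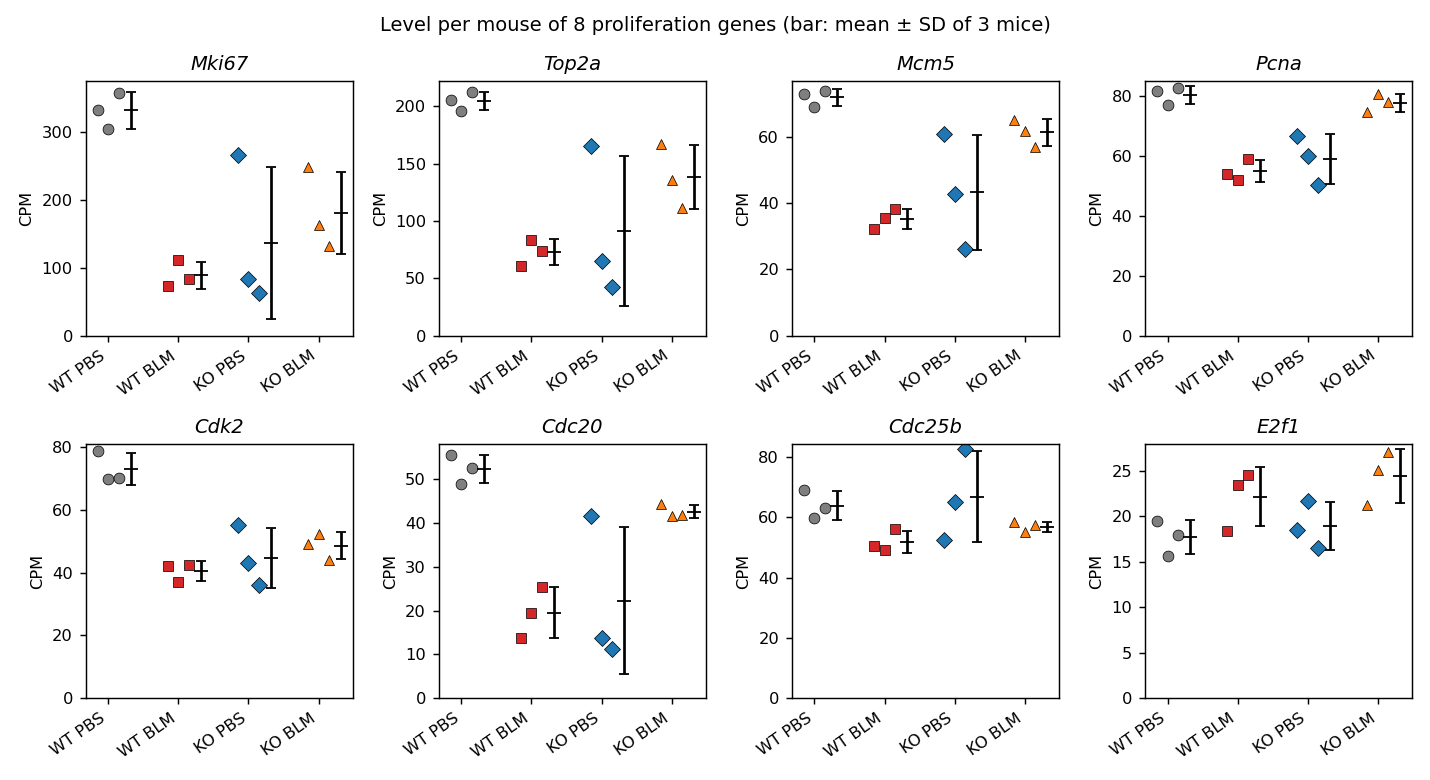
CPM per mouse of 8 members (y axis from 0) in the 4 groups, with 1 point per mouse and the mean ± SD of 3 mice beside them. WT PBS and WT BLM are separate for every gene shown except E2f1, and 1 KO PBS mouse, number 136, lies above the other KO PBS mice for 6 of the genes but not for Cdc25b and E2f1.

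The count of 38 rested on all 6 WT mice. It fell to 9, 16 and 12 without WT PBS mouse 159, 160 or 161, when 14%, 13.9% and 18.1% of all genes tested were called in either direction. It fell to 7, 15 and 10 without WT BLM mouse 145, 146 or 147, when 21.5%, 19.8% and 17.6% of all genes were called. Without mouse 145 the share of members called (15.2%) was thus below that of all genes, and without mouse 147 (21.7%) or mouse 159 (19.6%) it was near it. The count ran from 32 to 45 when 1 KO mouse was left out, with 45 reached without KO PBS mouse 136, when 45.7% of all genes were called. The 45 members below 0 stayed below 0 in all 12 such fits. This is no separate check of direction, because in these members every WT BLM mouse was already below every WT PBS mouse. Mcm2, Mcm5, Mcm7, Pcna, Cdk2 and Ttk were called in every one of those 12 fits.

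Other cell cycle genes moved with the members in WT mice. Of 144 such genes tested, 90 fell and 5 rose, with a median log2 fold change of -0.81. Of all 18311 genes tested, 2589 were called lower and 3633 higher. By list, 29 of 45 other replication genes, 40 of 54 other mitosis genes, 10 of 23 genes of G1 cyclins, kinases and the RB family, and 11 of 22 of replication stress and DNA break repair fell. Mycn, a MYC family transcription factor, showed the largest decrease. It was at 52.3, 44.5 and 46.6 CPM in WT PBS and at 2.31, 6 and 3.58 CPM in WT BLM, 12-fold lower (adjusted p = 0.00942). Exo1, an exonuclease of mismatch repair, was 3.33-fold lower (adjusted p = 0.0151) and Fanca, of the Fanconi anaemia repair pathway, 3.28-fold lower (adjusted p = 0.0333). The 5 that rose were Ccnd3, Cdk6, Pttg1, Orc3 and Zwint, of which Orc3 and Zwint were chosen for naming after their values were seen. The G1 cyclin Ccnd3 was at 51.9, 52.2 and 50.01 CPM in WT PBS and at 119, 105 and 130 CPM in WT BLM, 2.30-fold higher (adjusted p = 0.00656). Its kinase partner Cdk6 was 1.62-fold higher (adjusted p = 0.00329). Pttg1, the securin gene, rose 1.97-fold (adjusted p = 0.0157), and its log2 fold change was 0.98 where the median of the other mitosis genes was -1.08.

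Hair growth markers moved with this comparison. Krt71 (chr15:101733949-101743109, GRCm38, - strand) was at 13454, 16071 and 12840 CPM in the WT PBS mice and at 15.2, 253 and 3.67 CPM in the WT BLM mice. Of the growing hair markers 9 of 10 were tested, Krt85 not being among the genes tested. All 9 were lower in WT BLM with no overlap between the WT groups, against 28.7% of all genes tested. Their summed level was 42428 to 56597 CPM in WT PBS and 35.9 to 776 CPM in WT BLM, and 3 passed the test. Markers of some other cell types moved too. Of the 18311 genes tested, 3633 were called higher and 2589 lower in this comparison. The macrophage markers summed to 328 to 747 CPM in WT PBS and to 1879 to 2643 CPM in WT BLM (5 of 6 rose), and the T cell markers to 14 to 15.9 and 35.6 to 61.4 CPM (5 of 5 rose). The fibroblast markers summed to 5824 to 7936 and 10741 to 34408 CPM (4 of 6 rose), the skeletal muscle markers to 3058 to 4173 and 11392 to 23723 CPM (4 of 5 rose), and the muscle progenitor markers to 2.09 to 5.65 and 68.1 to 182 CPM (4 of 4 rose). None of the markers in these lists was at 0 in any mouse. The basal keratinocyte markers, 7662 to 8517 and 6453 to 13858 CPM, had 1 of 6 called higher, and the endothelial markers, 111 to 120 and 131 to 350 CPM, had 3 of 4 called higher. Of the suprabasal keratinocyte markers 2 of 5 rose, of the wound keratinocyte markers 2 of 4 rose and 1 fell, and of the sebaceous gland markers 2 of 4 fell. The part of these cell types in the decrease of the proliferation genes was not tested.

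In KO mice no member passed the test. With bleomycin, 0 of 46 were called in either direction (edgeR), against 0.306% of all genes tested. An unadjusted p under 0.05 was reached by 15 of 46, against 20% of all genes tested. In an edgeR model of only these 2 groups, with its own estimate of the spread, 2 members reached it. The share of all genes at that unadjusted p was not computed for the model of 2 groups. DESeq2 called 2, both higher (4.35%), a smaller share than the 5.95% of all genes it called. The log2 fold change was above 0 for 45 members, with a median of 0.49, whereas 50.6% of all genes tested were below 0. In 9 of 46 members every KO BLM mouse was above every KO PBS mouse, against 10.8% of all genes tested. The KO PBS group was split. Mki67 was at 266, 83.4 and 62.3 CPM in KO PBS mice 136, 137 and 139, and at 250, 163 and 132 CPM in the KO BLM mice. Mouse 136 was thus high and mouse 139 lowest, and the log2 fold change of 0.40 did not pass the test (adjusted p = 0.643).

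That split ran through the set. KO PBS mouse 136 was above both other KO PBS mice in 44 of 46 members, against 45.5% of all genes tested, and mouse 139 was the lowest of all 12 mice in 40 members, against 10% of all genes tested. Top2a was at 166, 65.4 and 42.5 CPM in KO PBS and at 167, 136 and 111 CPM in KO BLM. Kif11 was at 56.6, 18.9 and 11.9 CPM and at 51.2, 39.4 and 30.5 CPM. Cdc20 was at 41.6, 13.8 and 11.3 CPM in KO PBS and at 44.2, 41.5 and 41.9 CPM in KO BLM, so its KO BLM mice lay close together beside mouse 136. Mybl2, at 21.6, 4.31 and 3.69 CPM against 14.7, 9.24 and 9.47 CPM, had all 3 KO BLM mice between mouse 136 and the other two. Cenpf, at 47.4, 16.6 and 14.4 CPM and at 47.0, 29.8 and 27.7 CPM, and Bub1b, at 44.7, 16.5 and 12.7 CPM and at 43.3, 32.5 and 27.9 CPM, had the same layout. Cenpe was at 34.8, 10.03 and 8.91 CPM in KO PBS and at 37.6, 22.6 and 20.0 CPM in KO BLM. Ube2c was at 32, 10.9 and 7.09 CPM and at 34.9, 31.5 and 30.9 CPM. In both, KO BLM mouse 141 was above mouse 136 and the other KO BLM mice lay below it. Markers of some cell types also set mouse 136 apart. In mice 136, 137 and 139 the growing hair markers summed to 66010, 36.5 and 196 CPM, highest in mouse 136. The skeletal muscle markers summed to 5171, 21588 and 18665 CPM and the macrophage markers to 354, 1655 and 1340 CPM, both lowest in mouse 136. The basal keratinocyte markers, at 10196, 11707 and 15543 CPM, lay closer together. Their part in the split was not tested.

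Pcna and Mcm6 lay closer together in the KO PBS mice than the mitosis genes above. Pcna was at 66.6, 59.9 and 50.2 CPM in KO PBS and at 74.6, 80.7 and 77.9 CPM in KO BLM. These groups did not overlap, though the log2 fold change of 0.40 did not pass the test (adjusted p = 0.135). Mcm7 was at 80.9, 50.7 and 46.5 CPM against 77.1, 81.0 and 72.5 CPM, Mcm6 at 83.4, 73.9 and 57.5 against 87.0, 92.8 and 80.5 CPM, and Mcm10 at 14.3, 7.94 and 3.40 against 13.7, 10.9 and 7.88 CPM. Cdk2, at 55.0, 43.0 and 35.9 CPM against 49.2, 52.3 and 43.9 CPM, had a log2 fold change of 0.12 (adjusted p = 0.677). Cdc25c, at 9.41, 3 and 1.88 CPM against 11, 8.96 and 8.09 CPM, had a log2 fold change of 0.98 that did not pass the test (adjusted p = 0.276). Cdc25b ran the other way in KO PBS, at 52.6, 65.1 and 82.7 CPM, and was at 58.3, 55.0 and 57.4 CPM in KO BLM. Foxm1 was at 38.4, 17.0 and 10.5 CPM against 39.4, 31.1 and 28.1 CPM, and E2f8 at 21.3, 10.8 and 8.16 CPM against 24.0, 18.7 and 20.2 CPM. E2f1 was again without this layout, at 18.5, 21.7 and 16.5 CPM in KO PBS and at 21.2, 25.1 and 27.0 CPM in KO BLM. Without mouse 136, 36 of 46 members were called higher in KO BLM, and 14% of all genes tested were called in either direction.

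**Figure D3:**
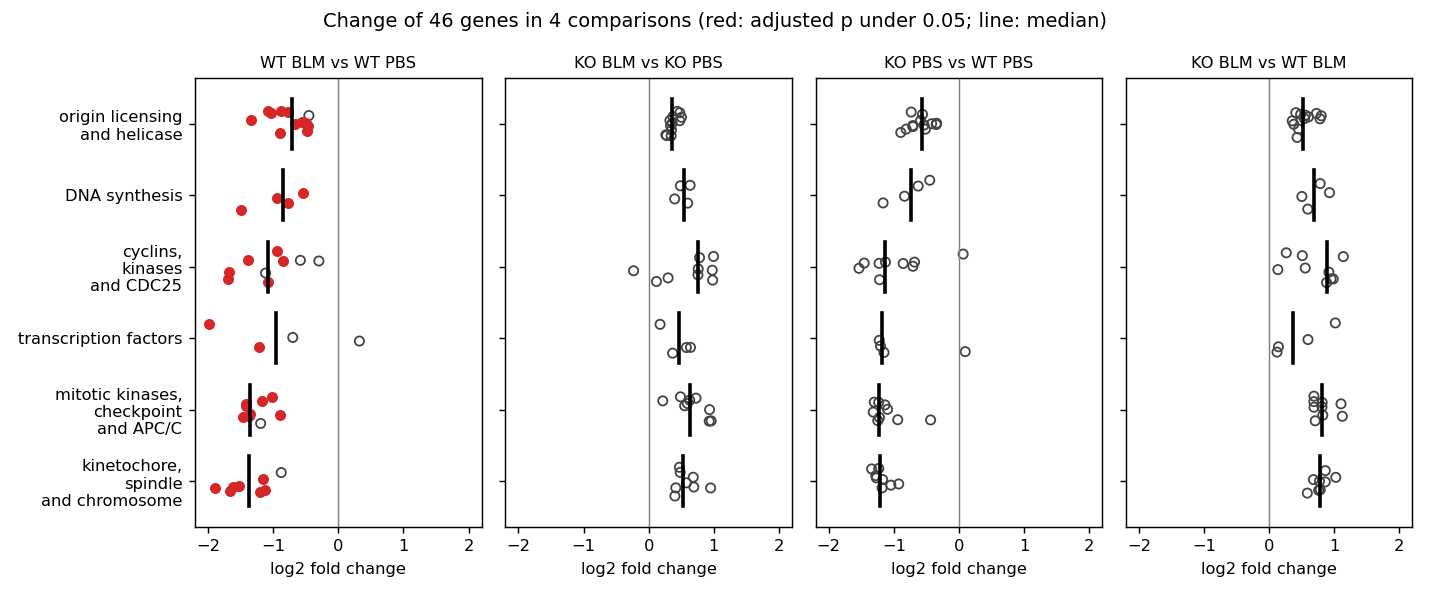
Log2 fold change of each of the 46 genes (1 circle per gene) by role in WT BLM against WT PBS, KO BLM against KO PBS, KO PBS against WT PBS and KO BLM against WT BLM, with filled red circles for adjusted p under 0.05 and a line for the median of the role. Red circles are seen only in the WT bleomycin comparison, and most circles of the KO bleomycin comparison lie to the right of 0.

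Between genotypes, the counts again turned on KO PBS mouse 136. KO PBS against WT PBS had 0 of 46 members called (edgeR), with 0.0655% of all genes tested called, although 42 members, and 20.4% of all genes tested, had an unadjusted p under 0.05 and DESeq2 called 11 lower (3.69% of all genes in either direction). In an edgeR model of only these 2 groups, 25 members had an unadjusted p under 0.05, with the share of all genes not computed. The median log2 fold change was -0.99, and 44 members were below 0, against 48.7% of all genes tested. All 3 KO PBS mice were below all 3 WT PBS mice in 41 members, against 10.3% of all genes tested. Mouse 136 was below every WT PBS mouse in 42 members (27.4% of all genes tested), and mouse 137 with mouse 139 in 44 (35.9% of all genes tested). For Mki67 the log2 fold change was -1.28 (adjusted p = 0.214) and for Pcna -0.45 (adjusted p = 0.194). Without mouse 136, 44 members were called lower, and 36.7% of all genes tested were called in either direction. Markers of other cells differed as well. The skeletal muscle markers summed to 5171 to 21588 CPM in KO PBS and 3058 to 4173 CPM in WT PBS, with 5 of 5 not overlapping and higher. The basal keratinocyte markers summed to 10196 to 15543 CPM and 7662 to 8517 CPM. Of these, 4 of 6 did not overlap and were higher, against 1579 of all 18311 genes tested. None of these markers passed the test, and their part in the difference was not tested. This comparison shares the WT PBS mice with the WT bleomycin comparison and the KO PBS mice with the KO one.

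KO BLM against WT BLM had 0 of 46 called (edgeR), with 0.0928% of all genes tested called, 19 members at an unadjusted p under 0.05 (16.6% of all genes tested), and 4 called higher by DESeq2 (2.99% of all genes in either direction). In an edgeR model of only these 2 groups, 38 members had an unadjusted p under 0.05, with the share of all genes not computed. All 46 had a log2 fold change above 0, with a median of 0.70, whereas 52.6% of all genes tested were below 0. Every KO BLM mouse was above every WT BLM mouse in 39 members, against 14.7% of all genes tested. In 31 members every KO BLM mouse was below every WT PBS mouse, against 23.7% of all genes tested. In Mcm5 the KO BLM mice lay between the WT groups: 72.9, 69.1 and 73.9 CPM in WT PBS, 65.3, 61.8 and 57.0 CPM in KO BLM and 32.1, 35.4 and 38.2 CPM in WT BLM. For Mcm5 the log2 fold change between KO BLM and WT BLM was 0.80 (adjusted p = 0.233). The growing hair markers summed to 3461 to 32609 CPM in KO BLM and 35.9 to 776 CPM in WT BLM, with 9 of 9 not overlapping. The macrophage markers summed to 1265 to 1785 CPM in KO BLM and 1879 to 2643 CPM in WT BLM. None of these markers passed the test, and their part in these differences was not tested. Without KO PBS mouse 136, which is in neither group but shares in the estimate of the spread, 21 members were called higher, and 6.89% of all genes tested were called in either direction.

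Whether bleomycin acted differently in KO and WT mice was tested as an interaction. It was above 0 for all 46 members, with a median of 1.69 on the log2 scale against -0.05 for all genes tested, of which 52.9% were below 0. None was called (edgeR), as none was among all genes tested (0%), and the smallest adjusted p of a member was 0.0702. At an unadjusted p under 0.05 there were 44 members (31.1% of all genes tested), DESeq2 called 44 (17.8% of all genes in either direction), and edgeR without KO PBS mouse 136 also called 44 (39.9%). The largest interactions were those of Cdc25c (2.67, adjusted p = 0.0713), Ccnb1 (2.44, adjusted p = 0.0726) and Ube2c (2.42, adjusted p = 0.0707). Cdc25b (0.07, adjusted p = 0.839) and E2f1 (0.04, adjusted p = 0.905) had values near 0.

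Set beside Krt71, the members were highest in the libraries with the most Krt71. Krt71 was at 17177, 0.600 and 47.0 CPM in KO PBS mice 136, 137 and 139 and at 10300, 1257 and 2051 CPM in KO BLM mice 141, 143 and 144. The mean log2 CPM of the 46 members was 5.28, 5.13 and 5.23 in WT PBS, 5.01 in KO BLM mouse 141 and 4.94 in KO PBS mouse 136. These are the 5 libraries with the most Krt71. KO BLM mice 143 and 144, with intermediate Krt71, had 4.81 and 4.67. The 5 libraries with the least Krt71 had 4.24 (WT BLM 146), 3.51 (KO PBS 139), 3.97 (WT BLM 145), 4.24 (WT BLM 147) and 3.998 (KO PBS 137), in falling order of Krt71. The order within these 5 did not follow Krt71, since KO PBS mouse 139 was lowest with more Krt71 than 3 others. In 26 of 46 members (56.5%) the 5 highest libraries were exactly the 5 with the most Krt71, against 14.4% of all genes tested and 51.4% of the other cell cycle genes. This held for 7 of 8 kinetochore, spindle and chromosome genes and 7 of 9 mitotic kinase, checkpoint and APC/C genes, but for 3 of 12 licensing and helicase genes. No correlation over the 12 mice is given, because the WT PBS and WT BLM mice do not overlap in Krt71.

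**Figure D4:**
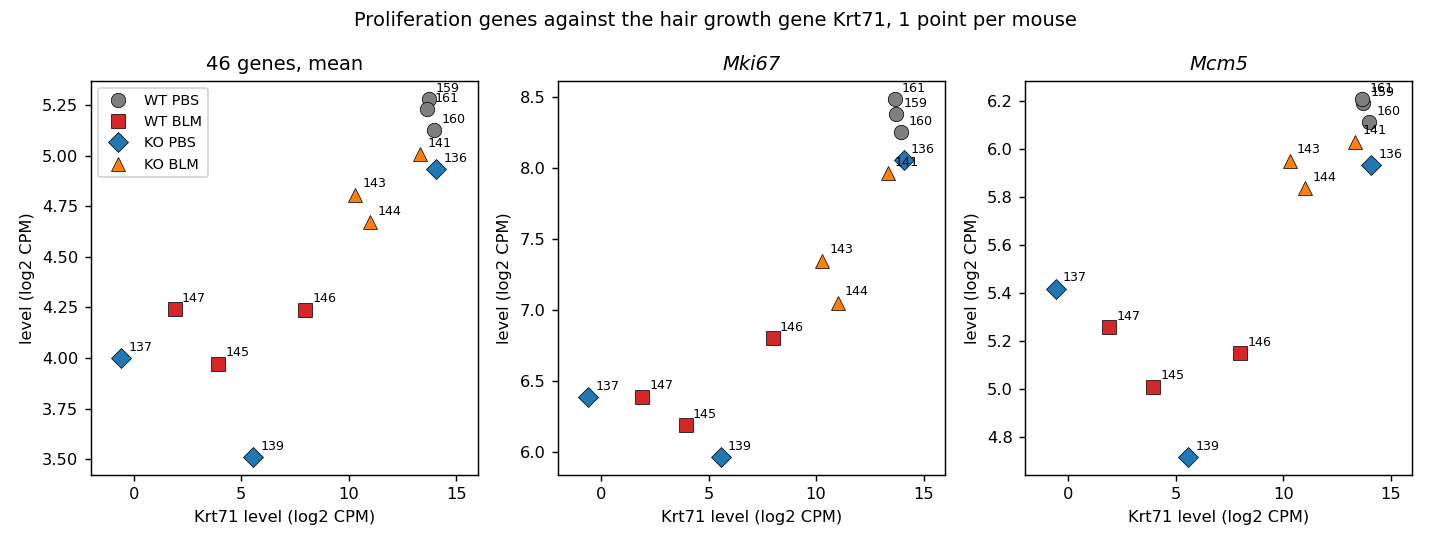
Level of Krt71 (x axis, log2 CPM) against the mean level of the 46 members, Mki67 and Mcm5 (y axes, log2 CPM), with 1 numbered point per mouse and a colour per group. KO PBS mouse 136 and KO BLM mouse 141 lie beside the WT PBS mice at high Krt71, and KO BLM mice 143 and 144 lie between them and the 5 mice with the least Krt71.

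Within groups, the slope on Krt71 was tested after the 4 group means were taken out. It was above 0 for 43 of 46 members and below 0 for 48.1% of all genes tested. The test was passed by 5 members, all upward (10.9%), against 7.31% of all genes tested in either direction and 4.83% upward. They were Cenpe (0.13 log2 units per log2 unit of Krt71, SE 0.03, adjusted p = 0.0196), Cenpf (0.11, adjusted p = 0.0251), Mybl2 (0.15, adjusted p = 0.0278), Mki67 (0.12, adjusted p = 0.0337) and Bub1b (0.10, adjusted p = 0.0445). At an unadjusted p under 0.05 there were 27 members, against 27.1% of all genes tested. By role, the median slope was 0.02 for licensing and helicase genes, with 0 of 12 called, and 0.10 for kinetochore, spindle and chromosome genes, with 3 of 8 called. The slope rested on KO PBS mouse 136. Without it 0 members were called, with 0.849% of all genes called, and the median slope of the members was -0.03.

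With Krt71 as a covariate beside the group means, the WT decrease was smaller for most members. The median log2 fold change went from -1.08 to -0.50, and 0 of 46 members were called. Over all genes tested the number called went from 6222 to 151 (0.825%). Mybl2 moved from -1.99 to -0.59 (adjusted p = 0.606) and Mki67 from -1.90 to -0.82 (adjusted p = 0.357). Pcna moved from -0.55 to -0.50 (adjusted p = 0.177) and Cdk2 from -0.85 to -0.69 (adjusted p = 0.147). In WT mice Krt71 and treatment cannot be told apart, since the 3 WT PBS mice had at least 12840 CPM of Krt71 and the 3 WT BLM mice at most 253 CPM. The slope that this model subtracts rested on KO PBS mouse 136, as given for the slope itself.

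**Figure D5:**
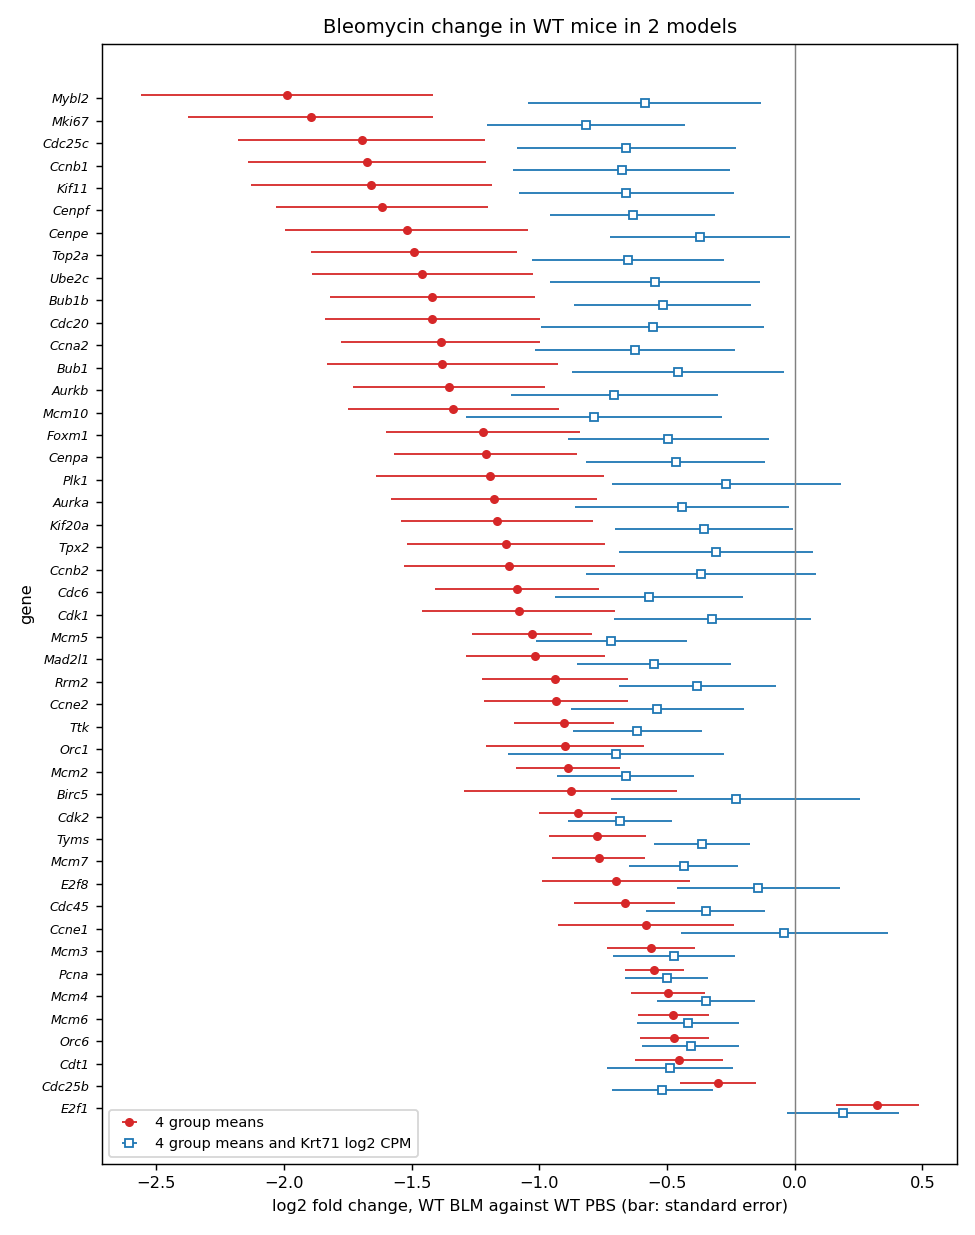
Log2 fold change of each of the 46 genes in WT BLM against WT PBS, with its standard error, from the model of 4 group means (filled circles) and from the model that adds Krt71 log2 CPM (open squares). Genes at the top, such as Mybl2 and Mki67, move far toward 0, whereas Pcna, Mcm6 and Orc6 near the bottom change little.

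The libraries held 26473700 to 38890450 counts. Thy1, the targeted gene, was at 104 to 150 CPM in WT PBS and 45.6 to 96.9 CPM in KO PBS, and at 231 to 416 CPM in WT BLM and 84.7 to 128 CPM in KO BLM. It was lower in KO mice within each treatment but not absent, and the deleted part of the gene is not given in the sources used here. Exons of 16 members overlap another gene, most of all Kif20a with Cdc23 (29.3% of its exonic length). Cdc23 was at 61.1 to 71.1 CPM in WT PBS and 45.2 to 52.2 CPM in WT BLM. On the opposite strand, Ints8 overlaps 17.4% of the exonic length of Ccne2 and Pmel overlaps 0.55% of that of Cdk2. Ints8 was at 36.0 to 39.2 CPM in WT PBS and 26.7 to 31.6 CPM in WT BLM. Pmel was at 357 to 446 CPM and 11.6 to 30.9 CPM. The part of overlapping reads in the changes of these members was not tested. Named processed pseudogenes of Ccnb1, Ccnb2, Pcna and Tyms held 0 to 45 counts over the 12 libraries, against at least 7263 for their parent genes.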

How the data were processed

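Skin RNA of 12 mice was sequenced from stranded mRNA libraries, and the authors deposited raw read counts per gene symbol, without normalization. The submitters' processing notes name GRCm38.p6 and MultiQC 1.7. The aligner, counting tool and use of strand are not given in the sources used here. Library totals, 26473700 to 38890450 counts, set the counting error. Genes were kept by filterByExpr (18311 of 55453), scaled by TMM and fitted in edgeR 4.0.16 (R 4.3.3, limma 3.58.1) by a quasi-likelihood model of 4 group means, with Benjamini-Hochberg adjustment over all genes tested and a threshold of 0.05. The biological coefficient of variation was 34.9%. The labels give each library its own number, taken here as 1 mouse, and p-values measure the spread between these samples. All groups share the same estimate of the spread, so mice outside a comparison affect its p-values. CPM used TMM-scaled totals, and log2 CPM a prior count of 2. The slope on Krt71 was tested as a covariate beside the group means. The alternatives were DESeq2 1.42.0, RLE and upper-quartile scaling, 2 other filters, models of 2 groups, Krt71 as a covariate and leaving out each mouse. Gene positions came from GENCODE M21 (GRCm38), and promoters from RefSeq (GRCm38.p6). Figures used Python 3.11.15 and matplotlib 3.10.9. The fits were also run on simulated counts with planted changes in some genes. Because each gene was drawn independently, these simulations do not test calls that turn on KO PBS mouse 136. Full values were given for Mki67, Top2a, Krt71, in each role the 2 members with the highest mean CPM and the one with the largest change in WT mice, members called in another comparison and members against the direction of their role. Of the other cell cycle genes, the 3 that rose and the 3 that fell most were named. Members and lists were chosen with earlier results of these data known.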

Additional observations from a re-analysis of the deposited data

How the results depend on the processing

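No paired analysis was possible because every mouse has its own number and none is shared between groups. For WT BLM against WT PBS, the 38 members called became 0 with Krt71 as a covariate, and 7 to 45 when 1 mouse was left out (all genes tested: 34% called, then 0.825%, and 13.9% to 45.7%). RLE and upper-quartile scaling, other filters, DESeq2 and the model of 2 groups kept it within 1.5 times of 38. DESeq2 called 2 members for KO BLM against KO PBS, 11 for KO PBS against WT PBS, 4 for KO BLM against WT BLM, 44 for the interaction and 13 for the slope on Krt71, where edgeR called 0, 0, 0, 0 and 5. Of all genes, DESeq2 called 5.95%, 3.69%, 2.99%, 17.8% and 14.9% in either direction. With 1 mouse left out these counts ran from 0 to 36, 0 to 44, 0 to 21, 0 to 44 and 0 to 15, in the same order, and KO PBS mouse 136 gave 36, 44, 21 and 44 (14%, 36.7%, 6.89% and 39.9% of all genes). Without a filter on low counts the slope was called for 8 members (4.53% of all genes). An alternative chosen after seeing the data left out KO PBS mouse 136 and KO BLM mouse 141 together. It gave 45, 35, 44, 8 and 44 members for the WT, KO, PBS, bleomycin and interaction comparisons and 0 for the slope (49%, 22.3%, 40.9%, 4.36%, 38.6% and 0.219% of all genes). There the slopes of Mybl2 (-0.0247) and Bub1b (-0.00695) turned below 0. With 1 mouse left out those slopes ran from 0.00897 to 0.200 (Mybl2) and from 0.0163 to 0.154 (Bub1b). The cause of these changes was not tested. With 3 mice per group, 1 mouse can decide a call, and the KO PBS group has 1 mouse far from the other two. KO BLM mouse 141 also stood apart from mice 143 and 144. It was above both in 33 of 46 members, against 42.5% of all genes tested. Its growing hair markers summed to 32609 CPM, against 3461 and 5701 CPM.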
